A study of Mus musculus with 4 samples.

Results

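The genes described here encode the machinery that folds proteins in the endoplasmic reticulum (ER), senses unfolded protein there and sends failed protein for degradation. Members were taken by name: a probe counted if it was not a control and carried 1 of 40 gene names in the array design. The array held 65 such probes, for 37 genes, among 40628 gene probes and 29353 genes in all. The names Armet, Erlec1 and Vimp matched no probe, and Armet is an older name of Manf, which was measured. Of the 37 genes, 35 had a probe that stood well above background on both phorone or both control arrays, and these were tested among 17033 genes.

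RNA came from C3H10T1/2 mouse embryo fibroblasts, an established line, chemically transformed and then exposed to phorone at 2 mM (2 arrays) or left without it (control, 2 arrays). Phorone is an unsaturated ketone that binds and depletes glutathione. Both groups had been transformed by the same course of 3-methylcholanthrene (3MC, 2.5 µg/ml, 2 days), normal medium (4 days), the phorbol ester TPA (100 ng/ml, given repeatedly over 2 weeks) and normal medium again (4 weeks). How long phorone was applied and in which vehicle is not given in the sources used here. The labels also leave unsaid whether replicate arrays were separate cultures; the p-values therefore reflect array-to-array spread that may be purely technical. No untransformed cells were analysed here.

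Proteins that enter the secretory pathway are folded in the ER by Hsp70 and Hsp90 chaperones with their J-protein partners, by the lectin chaperones, and by protein disulfide isomerases, which the Ero1 oxidases keep oxidised. When unfolded protein accumulates, the membrane sensors IRE1 (gene Ern1), ATF6 and PERK (gene Eif2ak3) signal to the nucleus, where ATF6 and the spliced form of XBP1 bind promoters of chaperone and degradation genes. Proteins that stay unfolded are drawn back across the membrane, ubiquitinated and destroyed by the proteasome.

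Promoter sequences show an element that many of these genes share. Its frequency among the members is not an independent result. They were picked by name as genes of this response, and the motifs searched come from the literature on it. The ER stress response element (ERSE) is the site at which NF-Y and ATF6 bind together, a CCAAT box followed, after 9 bases of any kind, by the letters CCACG. In RefSeq sequence (build GRCm38.p6), 31 of the 37 genes had a window of 250 bases before to 50 bases after a start, and 10 of these 31 (32.3%) held an ERSE on either strand, against 37 of 27025 genes overall (0.137%). Each end of the ERSE was also searched for by itself, on either strand, and then includes copies inside an ERSE. The CCAAT box stood in 23 of the 31 (74.2%) and in 41.1% of all genes. The other end, CCACG, stood in 28 of the 31 (90.3%) and in 35.5% of all genes. The related ERSE-II, in which ATTGG is followed after 1 base by the same CCACG, was found in Herpud1 and Dnajb11 (2 of 31, against 12 of 27025 genes), and TGACGTGG, the XBP1 element known as UPRE, in Txndc5 alone among the members (0.714% of all genes). The sequences below were chosen because they carry the same element in front of genes that changed in opposite directions. On the probe that stood for each gene, Ero1b, Syvn1 and Creld2 were higher with phorone, and Calr, Hspa5 and Canx were lower. Another Canx probe was called higher (1.10), so its direction depends on the probe. Each sequence is read 5′ to 3′ on the gene's strand, with the ERSE in capitals. In Ero1b, Creld2 and Calr the element lies on the opposite strand and so starts with CGTGG and ends with ATTGG. Ero1b and Calr are shown over the 250 bases before the start, the others over the element and 20 bases on each side.
Ero1b, chr13:12565633-12565882, plus strand: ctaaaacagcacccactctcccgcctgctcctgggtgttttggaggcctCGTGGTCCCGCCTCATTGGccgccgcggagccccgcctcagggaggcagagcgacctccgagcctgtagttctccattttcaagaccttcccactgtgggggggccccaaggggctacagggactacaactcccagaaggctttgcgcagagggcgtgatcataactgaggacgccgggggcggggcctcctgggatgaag
Syvn1, chr19:6046512-6046570, plus strand: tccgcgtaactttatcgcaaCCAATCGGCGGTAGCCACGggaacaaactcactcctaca
Creld2, chr15:88819500-88819558, plus strand: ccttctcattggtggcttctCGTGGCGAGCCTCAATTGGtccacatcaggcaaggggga
Calr, chr8:84846932-84847181, minus strand: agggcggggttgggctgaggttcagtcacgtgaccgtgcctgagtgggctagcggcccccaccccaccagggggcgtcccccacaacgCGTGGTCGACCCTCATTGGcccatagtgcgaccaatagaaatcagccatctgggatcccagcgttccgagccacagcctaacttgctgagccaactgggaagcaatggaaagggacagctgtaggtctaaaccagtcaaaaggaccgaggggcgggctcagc
Hspa5, chr2:34772005-34772063, plus strand: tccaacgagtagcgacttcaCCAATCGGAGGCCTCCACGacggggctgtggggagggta
Canx, chr11:50325780-50325838, minus strand: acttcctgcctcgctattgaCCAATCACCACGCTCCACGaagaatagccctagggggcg

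The comparison asked how transcripts of this machinery in phorone-exposed cells stood against those in unexposed cells. All values are log2 signals relative to each array's 75th percentile, and fold changes are phorone minus control on that log2 scale. A gene was called at a Benjamini-Hochberg adjusted p below 0.05 from limma over all 17033 genes. Of the 35 members tested, 9 rose and 15 fell, and 11 were not called. In all, 68.6% of the members were called, against 45.5% of all genes. The called share was 25.7% for higher members against a background of 24.3%, and 42.9% for lower members against a background of 21.3%. Changes of at least 2-fold were no more frequent here (7 of 35) than over all genes (20.1%). The members' median log2 fold change was -0.12, beside 0.08 over all genes tested. Phorone and control arrays did not overlap for 31 of the 35 members (88.6%, against 77.9% of all genes). Phorone arrays were the higher pair for 15 of them (42.9% of members, against 43.6% of all genes) and the lower pair for 16 (45.7%, against 34.3%). The lower count rested on all 4 arrays: it was 8 without control replicate 1, 8 without control replicate 2, 3 without phorone replicate 1 and 4 without phorone replicate 2, while the higher count was 6 to 8. In the same fits the lower share of the members was 22.9%, 22.9%, 8.57% and 11.1%, against 20.6%, 18.3%, 14.6% and 13.3% of all genes, so the members' lower share was not above that of all genes without either phorone array. Without phorone replicate 2, 36 members were tested, because Dnajb11, above background on only 1 phorone array, then passed the filter. It was among the higher members of that fit and is no support for the higher count. Where all kept probes of a gene were averaged instead of taking the brightest, 10 members were higher and 11 lower (31.4%, against 20.7% of all genes) and the median turned to 0.20, beside 0.10 over all genes. With no filter on dim probes, 5 members were higher and 4 lower (10.8%, against 8.59% of all genes).

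Scaling bears on the lower members. With the arrays scaled on their spike-in probes, 7 members were called higher and 2 lower, the members' median was 0.14 and the median of all genes moved to 0.34. The lower share was then 5.71% of the members, against 10.0% of all genes, so the larger lower share of the members was not seen under this scaling. The spike-in probes stood 0.03 and -0.05 from the 75th percentile on the phorone arrays, against 0.01 and 0.49 on the control arrays, so control replicate 2 stood apart. Without that array, spike-in scaling gave 7 higher and 5 lower members (14.3% lower, against 16.6% of all genes). Calr and Xbp1 (lower) and Derl2, Dnajb9, Ern1, Ero1a and Ero1b (higher) were called under all 17 settings that refitted the values.

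**Figure D1:**
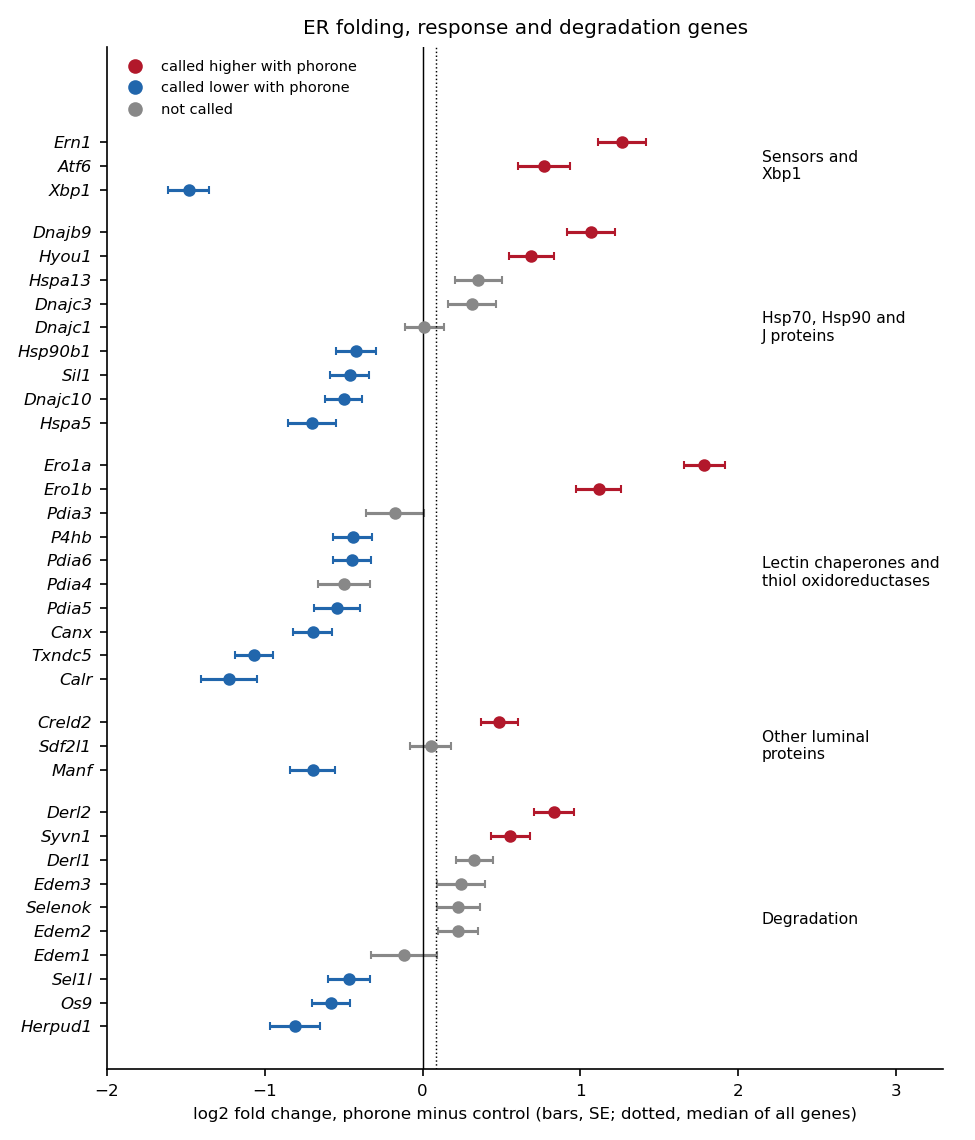
Log2 fold change (phorone minus control) of the 35 tested members, grouped by role, with the SE as bars and the median of all genes as a dotted line. Red genes were called higher, blue genes lower and grey genes were not called; Ero1a at 1.79 and Xbp1 at -1.48 lie at the ends.

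Among the members, the sensors Ern1 and Atf6 rose and Xbp1, the factor downstream of IRE1, fell; PERK, which is no member, is given with its arm below. Ern1, the kinase and endonuclease that splices Xbp1 mRNA, had -0.79 and -0.49 on the phorone arrays, against -1.95 and -1.87 on the control arrays. Its log2 fold change was 1.27 (SE 0.15, limma adjusted p = 0.00348). Atf6, the membrane-held transcription factor released by cleavage, had 2.18 and 2.45 with phorone and 1.67 and 1.42 in control cells, or 0.77 on the log2 fold-change scale (SE 0.16, limma adjusted p = 0.0175). The groups were apart for both genes, and the second probe of Atf6 was also higher (1.21). Xbp1, the transcription factor made active by IRE1 splicing, had 0.17 and 0.18 on the phorone arrays, against 1.57 and 1.74 on the control arrays. This was the deepest fall of any member, -1.48 (SE 0.13, limma adjusted p = 0.0015). Xbp1 had 1 probe, which gives the total signal: spliced and unspliced mRNA cannot be told apart on this array.

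The luminal Hsp70 and Hsp90 chaperones and their co-factors had 2 of 9 tested genes higher and 4 lower. The share called was 66.7%, against 45.5% of all genes (24.3% higher, 21.3% lower). On spike-in scaling 2 were higher and 0 lower. Hspa5 (BiP), the central Hsp70 of the ER, had 6.39 and 6.67 with phorone, against 7.17 and 7.29 without. Its log2 fold change was -0.70 (SE 0.15, limma adjusted p = 0.0181). Hsp90b1 (GRP94), the ER Hsp90, had 6.30 and 6.40 on phorone arrays and 6.83 and 6.71 on control arrays, or -0.42 on the log2 fold-change scale (SE 0.13, limma adjusted p = 0.0468). Phorone values lay below control values for both, but the second Hsp90b1 probe was at -0.16 and was not called. The nucleotide exchange factor Sil1 (-0.46) and the J-domain disulfide reductase Dnajc10 (-0.50) also fell. Of 3 further Dnajc10 probes, 1 was called lower (-0.46) and the others, at 0.02 and 0.01, were not called. Both called probes list a transcript outside the gene's own RefSeq transcripts, and the only probe that lists none was the one at 0.01. Whether that transcript belongs to another gene was not tested.

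In the same group, Dnajb9 (ERdj4), a J protein that holds BiP to IRE1 and helps degradation, had 0.78 and 1.00 with phorone, against -0.06 and -0.29 in control cells. Its log2 fold change was 1.07 (SE 0.15, limma adjusted p = 0.0056), and its other probes were higher by 2.20 and 0.98. Hyou1 (GRP170), a large Hsp70-related exchange factor for BiP, had 3.45 and 3.37 on the phorone arrays and 2.84 and 2.60 on the control arrays, or 0.69 on the log2 fold-change scale (SE 0.14, limma adjusted p = 0.0154). So BiP and Sil1, 1 of its 2 exchange factors here, were lower, while the other exchange factor and Dnajb9 were higher. Hspa13 (0.35), Dnajc3 (0.32) and Dnajc1 (0.01) were not called on their brightest probes, and a dimmer probe of Hspa13 (0.68) and of Dnajc3 (0.84) was called higher. Dnajb11, a J protein that delivers substrates to BiP, was above background on 1 phorone array and on no control array, and was not tested.

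Of the 8 lectin chaperones and disulfide isomerases, 6 fell and 2 were not called, while both oxidases that recharge the isomerases rose. Of these 10 genes 80% were called, against 45.5% of all genes (24.3% higher, 21.3% lower). On spike-in scaling 2 were higher and 1 lower. Calr (calreticulin), a calcium-binding lectin chaperone, had 4.24 and 4.20 with phorone, against 5.23 and 5.66 without. The log2 fold change was -1.23 (SE 0.18, limma adjusted p = 0.00578), and a second probe was lower by a similar amount (-1.08). Canx (calnexin), its membrane-bound relative, had 4.39 and 4.28 on the phorone arrays, against 5.08 and 4.98 on the control arrays, or -0.70 on the log2 fold-change scale (SE 0.12, limma adjusted p = 0.0103). Both genes were separated between the groups on these probes, but other Canx probes differed, as described below.

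Of the 6 isomerases measured outside Ero1, Txndc5 was lowest relative to control cells, with 3.38 and 3.46 with phorone against 4.52 and 4.46 without. Its log2 fold change was -1.07 (SE 0.12, limma adjusted p = 0.00293), while its dimmer probe was at -0.08 and was not called. Pdia5 (-0.54), Pdia6 (-0.45) and P4hb (-0.44), the classical protein disulfide isomerase and a subunit of collagen prolyl hydroxylase, were also called lower. Pdia4 had a log2 fold change of -0.50 (limma adjusted p = 0.0624) and Pdia3, the partner of the lectin chaperones, one of -0.17, and neither was called. The Pdia3 probe had the lowest signal of these isomerases, -1.45 and -1.89 with phorone against -1.43 and -1.56 without.

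Ero1a, which passes electrons from the isomerases to oxygen, had 3.58 and 3.65 on the phorone arrays, against 1.91 and 1.74 on the control arrays. At 1.79 (SE 0.13, limma adjusted p = 0.00095), this log2 fold change was the largest rise among the members' brightest probes. Ero1b, the second oxidase, had -0.21 and -0.31 with phorone, against -1.25 and -1.50 without, or 1.12 on the log2 fold-change scale (SE 0.14, limma adjusted p = 0.0042). The phorone arrays lay above the control arrays for both oxidases. A second Ero1b probe was higher by 2.11, whereas a second Ero1a probe was at 0.20 and was not called.

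**Figure D2:**
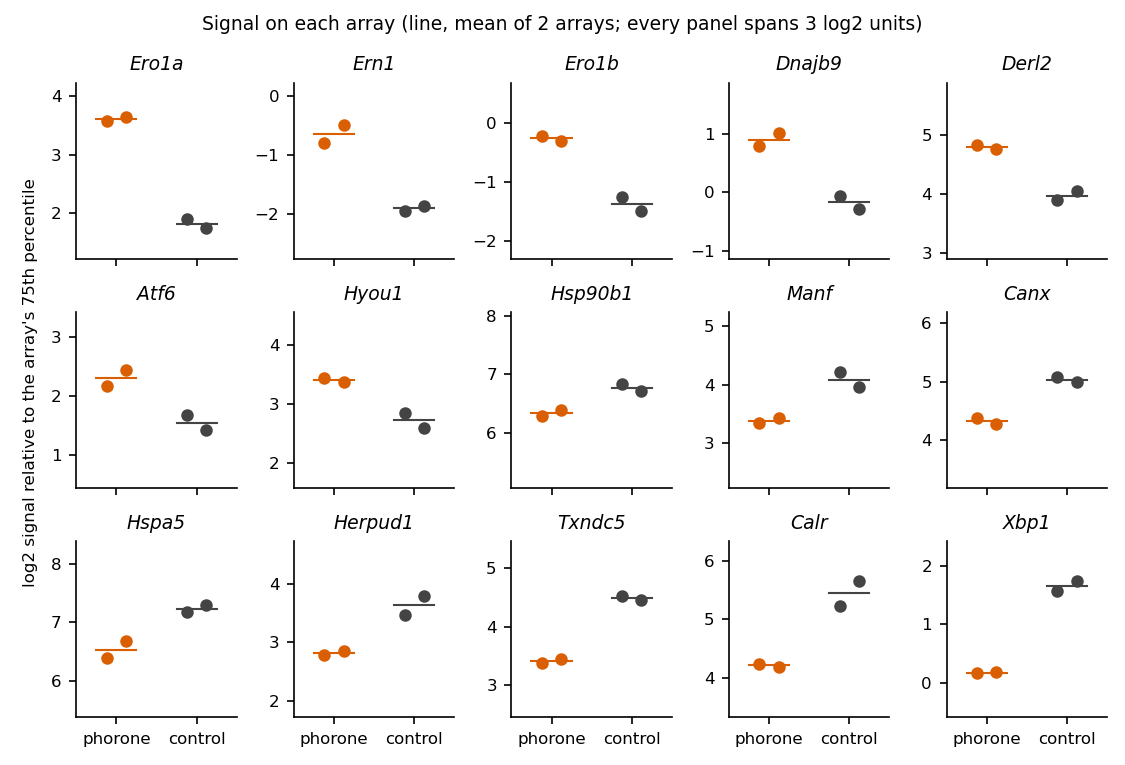
Signal of the named members on each array (log2, relative to the array's 75th percentile), with phorone arrays left of control arrays, a point per array and a line at the mean of 2 arrays. Every panel spans the same log2 range. Phorone and control points do not overlap in any panel, but all the genes shown were called, so this adds no support. Over all genes tested, the groups did not overlap for 77.9%.

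Other luminal proteins of the response did not share a direction. Manf, a secreted, ER-resident partner of BiP, had 3.34 and 3.43 on the phorone arrays, against 4.21 and 3.96 on the control arrays. Its log2 fold change was -0.70 (SE 0.14, limma adjusted p = 0.0156). Creld2, an EGF-domain protein known as an ER stress response gene, rose by 0.49 (limma adjusted p = 0.0257). Sdf2l1, a component of BiP complexes, was at 0.05 and was not called.

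Degradation genes had 2 of 10 tested genes higher, 3 lower and 5 not called. The share called was 50%, near the 45.5% of all genes (24.3% higher, 21.3% lower). On spike-in scaling 1 was higher and 0 lower. Derl2, a derlin that forms part of the channel through which substrates leave the ER, had 4.84 and 4.77 with phorone, against 3.90 and 4.05 in control cells. The log2 fold change was 0.83 (SE 0.13, limma adjusted p = 0.00689). A second Derl2 probe had an outlier spot on control replicate 2 and was left out. Its values were -0.09 and -0.13 on the phorone arrays and 0.84 on control replicate 1, the opposite order. Syvn1 (HRD1), the membrane ubiquitin ligase at the centre of the pathway, rose by 0.56 (limma adjusted p = 0.0189).

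Herpud1, a membrane protein that organises the HRD1 complex, had 2.78 and 2.86 on the phorone arrays, against 3.46 and 3.79 on the control arrays. It fell by 0.81 (SE 0.16, limma adjusted p = 0.0134). Os9, a lectin that hands glycoproteins to HRD1, had a log2 fold change of -0.58, and Sel1l, the scaffold of HRD1, one of -0.46, both called lower. Edem1, Edem2 and Edem3, which mark glycoproteins for degradation, were at -0.12, 0.22 and 0.24, and Selenok (array name Selk) at 0.23, none of them called. Derl1 was at 0.33 (limma adjusted p = 0.0735). Derl3 was not well above background on any array.

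Probes of the same gene did not always tell the same story. Of the 35 tested members, 18 had more than 1 kept probe, and in 12 of these all probes had the same sign. Canx, Derl1 and Sel1l had probes called in opposite directions in a limma fit over all 24207 kept probes, as did 208 of the 5612 genes on the array with several kept probes. In that fit 19 of the 62 kept member probes were higher and 19 lower.

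Beside its brightest probe (-0.70), Canx had a probe at 0.01 and another with 2.10 and 2.25 on phorone arrays, against 1.05 and 1.09 on control arrays. That last probe was higher by 1.10 (limma adjusted p = 0.0033), and all 3 list the same number of transcripts, none of another gene. Sel1l had 0.51 and 0.38 with phorone against 0.84 and 0.98 without on its brightest probe, and 0.71 and 0.59 with phorone against -0.11 and -0.37 without on the other. The brightest was lower, at -0.46, and the other higher, at 0.89 (limma adjusted p = 0.00862), so the direction of Sel1l depends on the probe. For Derl1 the brightest probe had 4.32 and 4.30 with phorone, against 3.99 and 3.98 without. Of the other probes of Derl1, 1 was lower (-0.56), 1 was higher (0.59) and 1 was not called (0.51). The last pair also list transcripts outside the gene's own RefSeq transcripts, and whether these belong to another gene was not tested. Edem1 had a dimmer probe with 1.14 and 0.94 on the phorone arrays, against -0.38 and -0.48 on the control arrays, called higher (1.47). Which transcript forms these probes detect was not tested.

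**Figure D3:**
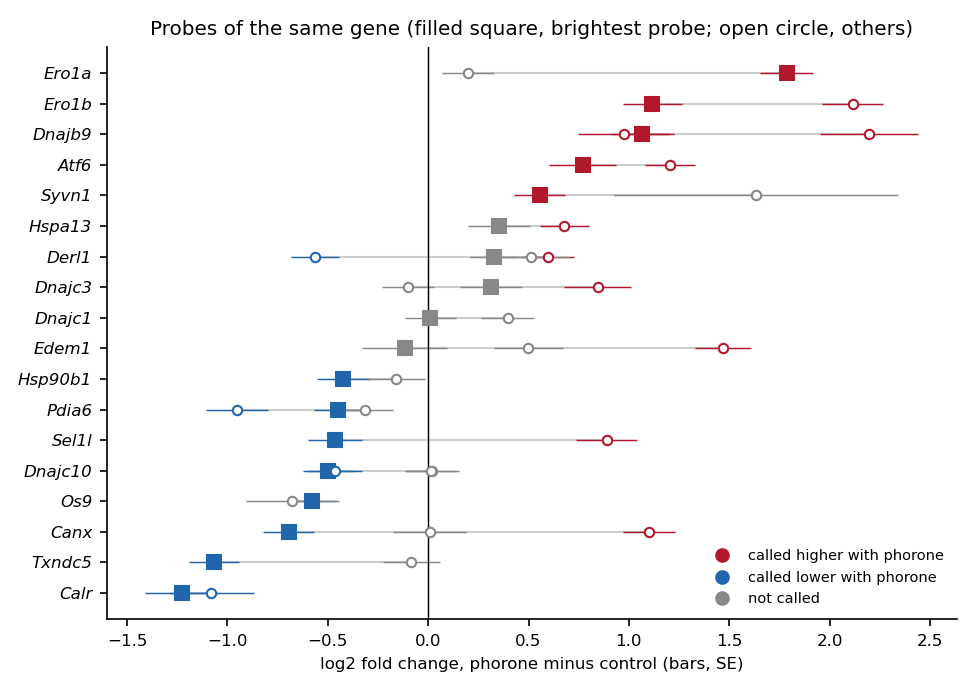
Log2 fold change (phorone minus control, bars SE) of every kept probe of the 18 members with more than 1, the brightest as a filled square and the others as open circles. Canx, Sel1l and Derl1 carry both red (higher) and blue (lower) symbols, while all symbols of Dnajb9, Ero1b and Atf6 are red and those of Calr are blue.

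Members that carry the ERSE did not move as a block. Over all genes, 24.3% were called higher and 21.3% lower. Of the 9 tested members with an ERSE, 3 were higher (Ero1b, Syvn1, Creld2) and 5 were lower (Calr, Hspa5, Canx, Pdia6, Hsp90b1). Dnajc3 was not called, and the range was -1.23 to 1.12. Counted from the gene start, the element lay between positions -212 and -26 in these genes, on either strand, and Hsp90b1 held a copy on each. Herpud1, with ERSE-II, and Txndc5, with the UPRE, were lower, but neither was called on spike-in scaling. Under that scaling, only Ero1b (higher) and Calr (lower) of the 9 with an ERSE were called. Second probes of Ero1b (2.11) and Calr (-1.08) were called in the same direction as the first. A second Hsp90b1 probe (-0.16) was not called, and another Canx probe was called higher (1.10). A match of letters describes the sequence and is not evidence of binding.

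**Figure D4:**
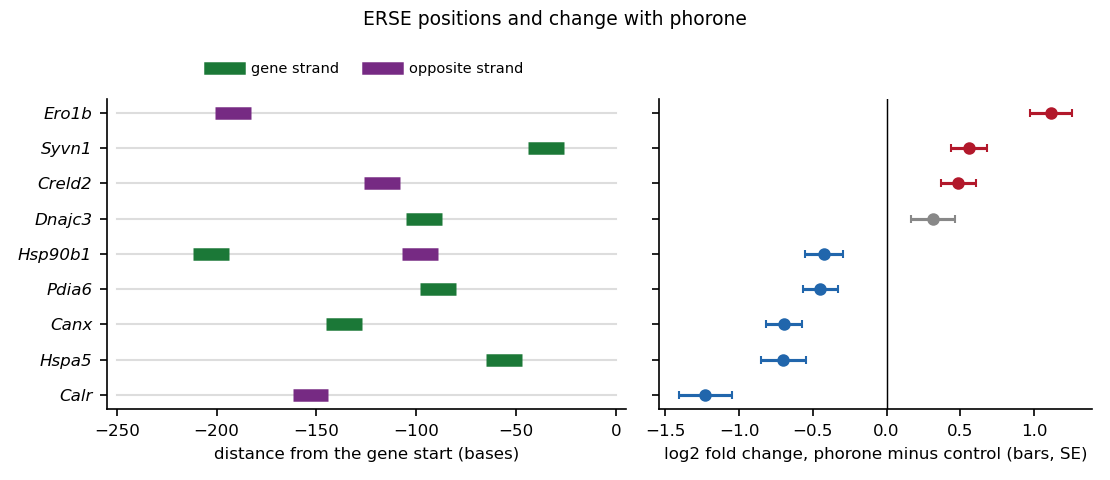
Left, position of each ERSE in the 9 tested members that hold one, in bases from the gene start (0), on the gene strand (green) or the opposite strand (purple). Right, log2 fold change of the same gene (phorone minus control, bars SE); called higher in red, lower in blue, not called in grey.

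Around the members, 158 further ER genes in 11 lists were tested, of which 33 rose and 28 fell. In all 38.6% were called, against 45.5% of all genes (24.3% higher, 21.3% lower), and their median log2 fold change was 0.06, beside 0.08 over all genes. The third sensor, Eif2ak3 (PERK), had -0.20 and -0.11 on the phorone arrays, against 0.23 and 0.29 on the control arrays, and fell by 0.41 (limma adjusted p = 0.0429). No PERK-arm gene was called lower with spike-in scaling, no filter, noncoding probes in the fit or a replicate block, nor without control replicate 2, phorone replicate 1 or phorone replicate 2; without control replicate 1 there were 2. The PERK substrate Eif2s1, a subunit of the translation initiation factor eIF2, rose by 0.83. The transcription factors downstream, Atf4 (-0.21, limma adjusted p = 0.35) and Ddit3 (-0.53, limma adjusted p = 0.193), were not called. Ddit3, also known as CHOP, had 2.37 and 2.58 with phorone, against 2.60 and 3.41 without, and the wide gap between control arrays stands beside its large SE of 0.29. In all, 1 of 8 PERK-arm genes was higher and 1 lower. Among other membrane-bound factors 3 of 10 were higher and 1 lower: Creb3l4 (2.08) and Creb3 (0.85) rose, and Creb3l1, a regulator of collagen secretion, fell by 1.68.

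In the fit on all 4 arrays described above, a pair of lists had calls in 1 direction only. Over all genes, 24.3% were called higher and 21.3% lower. Other ligases, conjugases and extraction factors of ER degradation had 13 of 25 genes (52%) higher and 0 lower, with a median of 0.51. At an unadjusted p below 0.05 by limma, 0 were lower too. With normexp correction and quantile normalisation, 14 were higher and 1 was lower, so the single direction depends on the processing. Fam8a1, an HRD1 cofactor (array name C78339), had a log2 fold change of 1.90 and the ligase Marchf6 one of 1.29. ER prolyl isomerases and collagen-folding enzymes had 0 of 18 genes higher (0 also at an unadjusted p below 0.05) and 11 lower (61.1%) by limma. Their median was -0.64. P3h2, a collagen prolyl 3-hydroxylase, had a log2 fold change of -1.95. P4ha3, a collagen prolyl 4-hydroxylase subunit, was not well above background on either phorone array and was at least 4.13-fold lower with phorone (limma adjusted p = 0.000693). That bound sets the control mean against a floor on each phorone array, the dimmest signal there that was well above background or, if higher, the probe's own signal. The degradation list had 7 higher genes without phorone replicate 2, and the collagen list 7 lower without either phorone array. On spike-in scaling they had 10 higher and 4 lower.

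Beside the collagen list and the lower chaperones, fibroblast markers were also lower. Of 12 fibroblast markers, 11 were above background on all 4 arrays, 9 fell and 0 rose (0 also at an unadjusted p below 0.05, by limma). The share called lower was 75%, against 21.3% of all genes. On spike-in scaling 6 were lower and 0 higher. Vim (-0.36), Col1a1 (-0.30) and Fn1 (-0.08) were not called. The summed signal of the 12 markers, in multiples of the 75th percentile, was 750 and 786 on the phorone arrays, against 1701 and 1772 on the control arrays. Bright markers such as S100a4 (log2 fold change -1.81) and Col1a2 (-1.12) weigh most in this sum. The part of the fibroblast markers in the members' values was not tested, and in bulk RNA fewer cells of a type and less RNA per cell cannot be told apart. Of the defining markers of other cell types, Ptprc (leukocytes), Pecam1 and Cdh5 (endothelium) and Cdh1 (epithelium) were not well above background on any array. Others were measured: Cd68 was called higher (1.26), Lyz2 lower (-1.74), and Tek, not well above background on either phorone array, was at least 1.68-fold lower. Csf1r (1.33), Cd3e (0.12) and Krt8 (0.08) were tested and not called. Of the longer marker lists, 4 of 8 leukocyte, 4 of 6 endothelial and 5 of 7 epithelial genes were not above background on any array. Summed leukocyte signal was 0.696 and 0.879 with phorone, against 0.652 and 0.678 without, epithelial signal 0.176 and 0.189 against 0.179 and 0.177, and endothelial signal 0.0619 and 0.0726 against 0.138 and 0.184.

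Over all genes 45.5% were called (24.3% higher, 21.3% lower). The share was 53.8% for calcium handling and 50% for other thiol oxidoreductases, 36% for the translocon list and 26.7% for COPII. It was 18.2% each for the oligosaccharyltransferase and glycan lists. Calcium-handling genes had 1 of 13 higher (Stim2, an ER calcium sensor, 0.80) and 6 lower, led by Rcn3 (-2.19), a calcium-binding ER protein, and the calcium channel Itpr1 (-1.20). Other thiol oxidoreductases had 4 of 14 higher, with Qsox1 at 1.13 and Tmx1 at 0.55, and 3 lower, with Txndc12 at -0.89 and Txndc16 at -0.72. Translocon, signal particle and signal peptidase genes had 7 of 25 higher, with Tram2 at 1.23 and Srprb at 1.10, and 2 lower, Sec61a2 (-0.56) and Ssr4 (-0.55). Genes of the COPII coat and ER exit had 3 of 15 higher, with Preb at 0.60 and Sar1b at 0.50, and 1 lower, Sar1a (-0.41). Oligosaccharyltransferase subunits had 0 of 11 higher (3 at an unadjusted p below 0.05, by limma) and 2 lower, Tmem258 (-1.07) and Stt3b (-0.51). Glycan-trimming genes had 1 of 11 higher, the glucosidase Mogs (0.83), and 1 lower, the glucosidase Ganab (-0.63). Of 8 ER-phagy receptors none was called by limma, although 2 were higher and 1 lower at an unadjusted p below 0.05. On spike-in scaling the calcium list had 1 higher and 1 lower, the thiol list 1 and 0, the translocon list 3 and 0, and the COPII and oligosaccharyltransferase lists 0 and 0. The translocon list had 3 higher without phorone replicate 1 and 2 without phorone replicate 2. The thiol list had 2 higher without control replicate 1 and 1 without any other array, and the COPII list had 1 without either control array and 0 without either phorone array. The oligosaccharyltransferase list had 1 higher without control replicate 1, 1 lower without control replicate 2 and 0 without either phorone array. The glycan list had 2 lower without control replicate 1, 0 lower with spike-in scaling or without either phorone array, and 0 higher without phorone replicate 1.

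**Figure D5:**
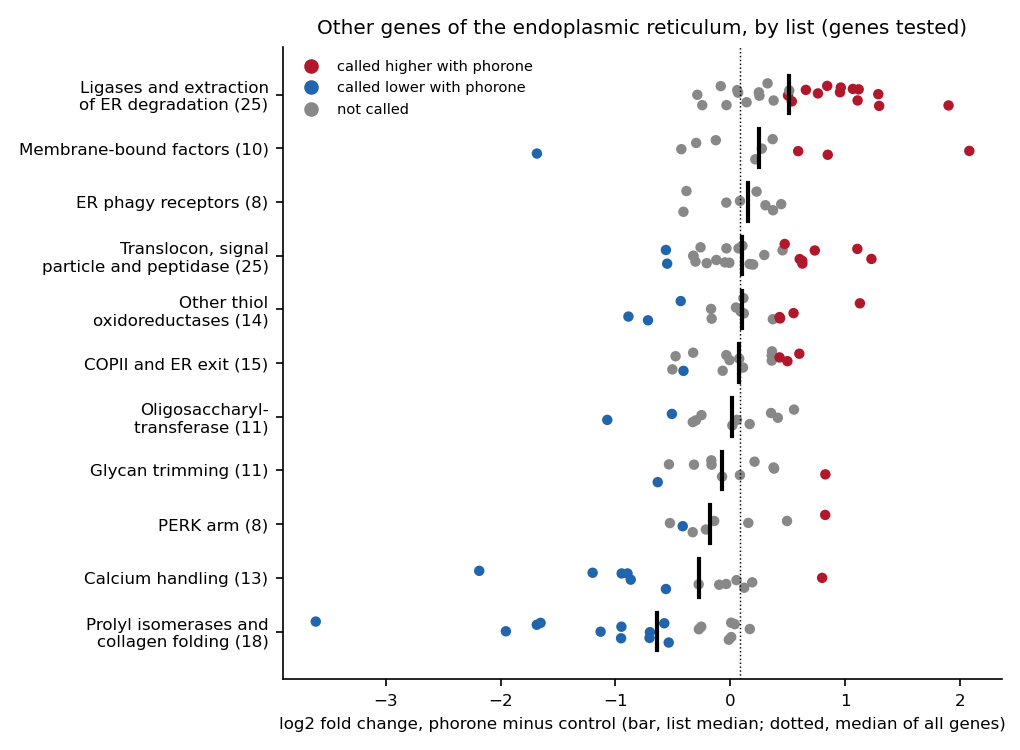
Log2 fold change (phorone minus control) of the other ER genes, a point per gene, by list with the number tested in brackets, the list median as a bar and the median of all genes as a dotted line. Red, blue and grey mark genes called higher, called lower and not called; the degradation list has no blue point and the collagen-folding list no red one. The point at -3.61 is P4ha3, which was not well above background on the phorone arrays.

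Measured values of the arrays as a whole stand beside these results. All 4 arrays lay on 1 slide, the phorone arrays in 1 row and the control arrays in another, so slide row and group cannot be told apart. Replicate 1 of both groups lay in 1 slide column and replicate 2 in another. The members' median was -0.07 within the first (15 of 35 above 0) and 0.09 within the second (18 of 35 above 0). Over all genes it was 0.10 (56.5% above 0) and 0.05 (52.9% above 0). The members' median thus lay below that of all genes in the first column only. No member spot was saturated, and 51.1% to 52.7% of spots per array were well above background. With 2 arrays a group, the SE of the members' log2 fold changes was 0.12 to 0.21, and the number of arrays limits this precision.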

How the data were processed

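The deposited scanner files hold intensity values (processed Cy3 signal, background-subtracted, with surrogate values for very dim spots) written by Feature Extraction 10.7.3.1 for a custom Agilent mouse array, per the file headers. A table of log2 values deposited by the authors differed from the log2 scanner signal by a constant within each array (SD at most 0.0223), near its 75th percentile, with column medians of -4.37 and -4.30 (phorone) and -4.39 and -4.35 (control). It served as an alternative.

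From the processed signal, log2 was taken and each array's 75th percentile subtracted; spots of a probe were averaged, and 111 probes with outlier spots were left out. Probes had to stand well above background on both phorone or both control arrays, and a gene's brightest kept probe stood for it. Probes were named through RefSeq transcripts of GRCm38.p6 (28136 of 40628 matched, 69.3%); others kept the design's name. The comparison used limma 3.58.1 (R 4.3.3, two-sided, 2 residual and 3.03 prior degrees of freedom) and Benjamini-Hochberg adjustment. The fit was also run on simulated data, with 50 genes changed by each amount. It called 8 genes at a true log2 change of -1, 6 at 1, 34 at -2 and 29 at 2, so many true changes were missed. Far fewer genes were changed there than were called here, so these rates need not hold for the data.

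Members and lists were chosen with earlier results of these data known. Named with values on every array were members called with at least a 1.5-fold change, Hspa5, Hsp90b1, Xbp1, Ern1, Atf6 and members whose probes were called in opposite directions; from each list, up to 2 called genes each way with the largest change, plus Ddit3, Atf4 and Eif2ak3. Other genes were named for their role.

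Alternatives covered scaling, background correction, filters, the rule for probes, the test and each array left out.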

Additional observations from a re-analysis of the deposited data

How the results depend on the processing

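Quantile normalisation, median scaling, normexp correction, the authors' value table, a filter for all 4 arrays, noncoding probes in the fit and an intensity trend gave 8 to 10 higher and 12 to 16 lower members. With a replicate block the lower count was 8 (deviations of same-numbered arrays correlated at -0.02 over genes in 2 pairs, so the numbers were not shown to pair the arrays), and with no filter on dim probes 5 members were higher and 4 lower (2305 higher genes of all). Requiring a 2-fold change left 4 higher and 3 lower members (1367 higher and 2051 lower genes). Spike-in scaling gave 2 lower members, a median of 0.14 and 1705 lower genes. Spike-in scaling without control replicate 2, added after the data were seen, gave 5. Leaving out 1 array gave 6 to 8 higher and 3 to 8 lower members, medians of -0.24 to 0.022, and 2030 to 3750 higher and 2340 to 3610 lower genes, with fewer arrays in each fit; a group left with 1 array was assumed to vary like the other. The higher members without phorone replicate 2 include Dnajb11, which passed the filter only there. The mean of a gene's probes gave a median of 0.20 and turned Canx to 0.14 and Sel1l to 0.21 and Edem1 to 0.62, since dimmer probes then count equally. Other causes were not tested. Of 24 called members, 22 kept their sign under all 17 settings that refitted the values, the exceptions being Canx and Sel1l. Genes dark on an array have no measured level there.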

Other observations

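Erlec1, a lectin of ER degradation, and Selenos, a membrane selenoprotein of the same pathway, are on the array under older names (4933407N01Rik and H47) and so fell outside the choice of members by name. Erlec1 had 3.33 and 3.04 on the phorone arrays, against 3.41 and 3.32 on the control arrays, a log2 fold change of -0.18 (limma adjusted p = 0.362). Selenos had 4.31 and 4.29 with phorone, against 3.86 and 4.18 without, a log2 fold change of 0.28 (limma adjusted p = 0.197). Neither was called.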
